A study of Mus musculus with 8 samples.

Results

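The 10 genes described here encode SR splicing factors of the mouse: Srsf1, Srsf2, Srsf3, Srsf4, Srsf5, Srsf6, Srsf7, Srsf9, Srsf10 and Srsf11. They were chosen by symbol from the 39017 genes of the expression table. No cut on their values was used, but earlier results of these data were known. The same symbols were looked up in the tables of splicing events. The data were RNA-seq libraries of induced germinal center-like B cells (iGBs), which are splenic B cells cultured on a fibroblast feeder line. There were 4 libraries of Prmt5-null iGBs and 4 of control iGBs, each from a separate sample and named here as in its label (PRMT5 and a number for Prmt5-null, CTRL and a number for control). Both genotypes were of strain C57BL6/J and carried Cγ1-cre, a recombinase switched on in activated B cells. Prmt5-null cells also carried Prmt5 F/F alleles and controls did not. All cells grew on 40LB cells expressing CD40L and BAFF, with IL-4 at 1 ng/mL, and were separated from the feeders by elutriation on day 4. Deletion thus took place during culture, so that a library can hold cells that kept Prmt5. The study used young adult mice of both sexes, and the age and sex behind each library were not used here.

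SR proteins bind short sequences in exons through an RNA recognition motif and recruit the spliceosome through a tail rich in arginine and serine, which kinases phosphorylate. Many SR genes limit their own expression: the protein promotes a splice form of its own transcript that holds a premature stop codon, in what is called a poison exon, and that form is degraded by nonsense-mediated decay (NMD). Prmt5, the deleted gene, encodes an enzyme that places symmetric dimethyl groups on arginines, among others in the Sm proteins of the spliceosome.

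The exons on which the splicing results turn were read from GENCODE transcripts on build GRCm38, 5′ to 3′, and are given because they are the exons whose inclusion levels the deposited events compared. For Srsf11, the line holds chr3:158023310-158023359 on the minus strand. It is the part of the 117-base skipped exon that runs to an annotated stop codon, in capitals. That stop belongs to a transcript without the 109-base exon described below. In the 1 annotated transcript with both exons, the stop codon lies in the 109-base exon. For Srsf10, at chr4:135863523-135863576 on the plus strand, the whole 54-base exon is given, with the first 3 bases, which a second acceptor leaves out, in capitals. For Srsf7, on the minus strand, the alternative exons lie at chr17:80202691-80202744 and chr17:80202169-80202204.
Srsf11 117-base exon, coding part: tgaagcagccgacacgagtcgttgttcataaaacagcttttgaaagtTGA
Srsf10 exon: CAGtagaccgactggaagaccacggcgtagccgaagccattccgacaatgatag
Srsf7 54-base exon: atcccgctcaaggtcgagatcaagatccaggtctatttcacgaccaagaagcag
Srsf7 36-base exon: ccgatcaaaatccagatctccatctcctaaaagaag

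The splice sites beside these exons are shown as the last 3 exon bases and first 6 intron bases of each donor, with the intron's GT in capitals, and for Srsf10 as the last 20 intron bases and first 6 exon bases of the acceptor, with both AG pairs in capitals. A second Srsf11 exon of 109 bases, at chr3:158024123-158024231, lies in the same intron and takes part in the same event, so its donor is given as well.
Srsf11 117-base exon, donor: cagGTgatg
Srsf11 109-base exon, donor: attGTatgt
Srsf10 exon, donor: tagGTaaat
Srsf10 exon, acceptor: ttttctggtatgctttttAGcAGtag

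Depth was close to even, with 42752293 to 47174851 reads on genes in Prmt5-null libraries and 36731721 to 50366174 in controls. Prmt5 fell from 11774 ± 908 normalized counts (SD, n = 4) in controls to 1538 ± 436 (n = 4) in Prmt5-null cells (log2 fold change -2.98, SE 0.17, limma adjusted p = 6.14e-06). B cell markers summed to 148900 to 177100 normalized counts in Prmt5-null and 147100 to 170400 in control libraries, and T cell markers to at most 19.0 in any library. The 10 fibroblast markers summed to 7120 to 11860 in Prmt5-null against 4657 to 8093 in controls. All 8 fibroblast markers that were tested had a higher estimate in Prmt5-null cells (median log2 fold change 0.74). Of these 8, 3 passed at an adjusted p below 0.05 by limma. Their part in the results below was not tested. Germinal center markers summed to 24340 to 24980 against 18160 to 23110, plasma cell markers to 23630 to 31160 against 29920 to 45640, and myeloid markers to 171 to 295 against 104 to 215. In bulk samples, fewer cells of a type and less RNA per cell cannot be told apart.

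The SR genes changed little in level after Prmt5 loss. All 10 were above the filter, a mean of at least 10 normalized counts, and 1 of the 10, Srsf7, passed the test at an adjusted p below 0.05, while 13.8% of the 16250 genes tested did, 6.51% higher and 7.33% lower in Prmt5-null cells. None reached both that threshold and a 1.5-fold change, against 6.48% of all genes. By limma, 2 members had an unadjusted p under 0.05, as did 29.3% of all genes tested, and edgeR and DESeq2 likewise placed 0 members past 1.5-fold. The 95% interval of the log2 fold change included 0 for 8 of the 10. No interval reached 1.5-fold (0.585 on the log2 scale), the widest limits being 0.50 for Srsf11 and -0.45 for Srsf6. The median log2 fold change was -0.04 over the members and 0.002 over all genes tested, with 4 members higher and 6 lower.

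**Figure D1:**
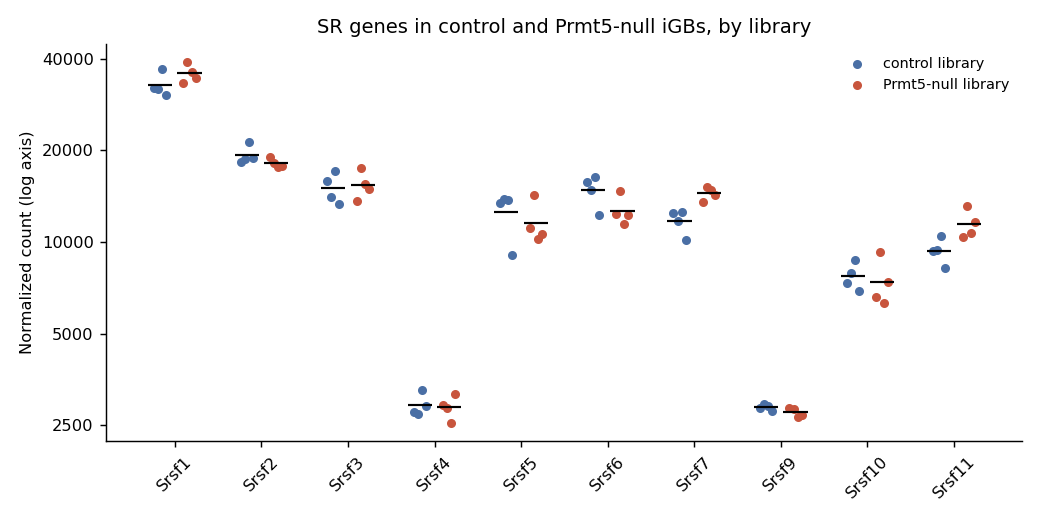
Normalized counts (log axis) of the 10 SR genes, with 1 point per library, control in blue and Prmt5-null in red, and the group mean as a bar. The points of the genotypes overlap for every gene except Srsf7, whose Prmt5-null libraries run from 13476 to 15205 and whose controls run from 10180 to 12517.

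Srsf7 has an RNA recognition motif with a zinc knuckle and also takes part in mRNA export. In control libraries CTRL-10370, CTRL-10596, CTRL-10597 and CTRL-10650 it was at 12436, 11709, 12517 and 10180 normalized counts. In Prmt5-null libraries PRMT5-10617, PRMT5-10618, PRMT5-10770 and PRMT5-10771 it was at 13476, 15205, 14777 and 14298. Every Prmt5-null library was above every control, and the lowest of all was CTRL-10650. Groups without overlap occurred in 19.8% of all genes. Srsf7 rose from 11711 ± 1083 (SD, n = 4) to 14439 ± 741 (n = 4), a log2 fold change of 0.31 (SE 0.08, 95% interval 0.12 to 0.49, limma adjusted p = 0.0308). That call was lost in 9 of 21 alternatives, among them leaving out CTRL-10650 (log2 fold change 0.24, adjusted p = 0.0822), CTRL-10596 (0.072), PRMT5-10618 (0.0609) or PRMT5-10771 (0.0762), while the direction was kept in all 21. With the experiment as a block, the adjusted p ran from 0.0167 to 0.0547.

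Srsf11, an SR protein that binds the U2AF complex at the 3′ splice site, had the next largest difference. Its control libraries CTRL-10370, CTRL-10596, CTRL-10597 and CTRL-10650 held 9324, 9427, 10469 and 8213 normalized counts. Its Prmt5-null libraries PRMT5-10617, PRMT5-10618, PRMT5-10770 and PRMT5-10771 held 10357, 13108, 10731 and 11591. The groups overlapped only through CTRL-10597 and PRMT5-10617. The means were 9358 ± 922 and 11447 ± 1222 (SD, n = 4 each), and the log2 fold change of 0.29 (SE 0.10, 95% interval 0.08 to 0.50) did not pass the test over all genes (limma adjusted p = 0.0653). It passed with DESeq2 (adjusted p = 0.0379) and without PRMT5-10770 (0.0495). With the experiment as a block, its adjusted p ran from 0.0166 to 0.0974 over the 18 possible placements of the libraries, since no label ties a library to its experiment.

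Srsf6, which like Srsf4 and Srsf5 acts through exonic splicing enhancers, had the most negative estimate. Its control libraries CTRL-10370, CTRL-10596, CTRL-10597 and CTRL-10650 were at 15678, 14856, 16309 and 12229 normalized counts, and Prmt5-null libraries PRMT5-10617, PRMT5-10618, PRMT5-10770 and PRMT5-10771 were at 12327, 14642, 11432 and 12266. CTRL-10650 lay among the Prmt5-null values and PRMT5-10618 lay just below CTRL-10596. The log2 fold change was -0.22 (95% interval -0.45 to 0.01, adjusted p = 0.189). Srsf5 ranged from 9085 to 13835 in controls and from 10237 to 14208 in Prmt5-null cells (log2 fold change -0.11, adjusted p = 0.659), and the lowest of these, CTRL-10650, was far from the other controls. Srsf4 ranged from 2724 to 3261 and from 2542 to 3159 (log2 fold change -0.02, adjusted p = 0.912).

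The founding members of the family, which act on a broad set of exons, did not pass the test either. Srsf1 ranged from 30362 to 36962 normalized counts in controls and from 33331 to 38997 in Prmt5-null cells (log2 fold change 0.13, adjusted p = 0.364). Srsf2, a marker protein of nuclear speckles, ranged from 18347 to 21325 and from 17619 to 19060 (-0.09, adjusted p = 0.474). Of the 2958 exonic bases of Srsf2, 748 (25.3%) overlap exons of Mfsd11 or Mettl23 on the opposite strand. Although the library kit kept strand, the strand setting of the counting is not given in the sources used here. The spans of Srsf1, Srsf4 and Srsf11 also overlap other annotated genes, among them A930004J17Rik on the strand of Srsf4 and Gm43362 on that of Srsf11. Overlap of their exons was not measured, and its part in the counts was not tested. Srsf3, the smallest SR protein and an adaptor of mRNA export, ranged from 13369 to 17036 and from 13624 to 17518 (0.03, adjusted p = 0.869).

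Srsf9, with a short arginine-serine tail, was the steadiest member, from 2775 to 2928 in controls and 2653 to 2837 in Prmt5-null cells (log2 fold change -0.06, adjusted p = 0.619). Srsf10, which acts as a splicing repressor once dephosphorylated, was at 7313, 7881, 8750 and 6920 in CTRL-10370, CTRL-10596, CTRL-10597 and CTRL-10650. It was at 6576, 9297, 6301 and 7397 in PRMT5-10617, PRMT5-10618, PRMT5-10770 and PRMT5-10771. PRMT5-10618 was above every control while PRMT5-10617 and PRMT5-10770 were below every control, and the log2 fold change was -0.07 (95% interval -0.33 to 0.19, adjusted p = 0.733).

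**Figure D2:**
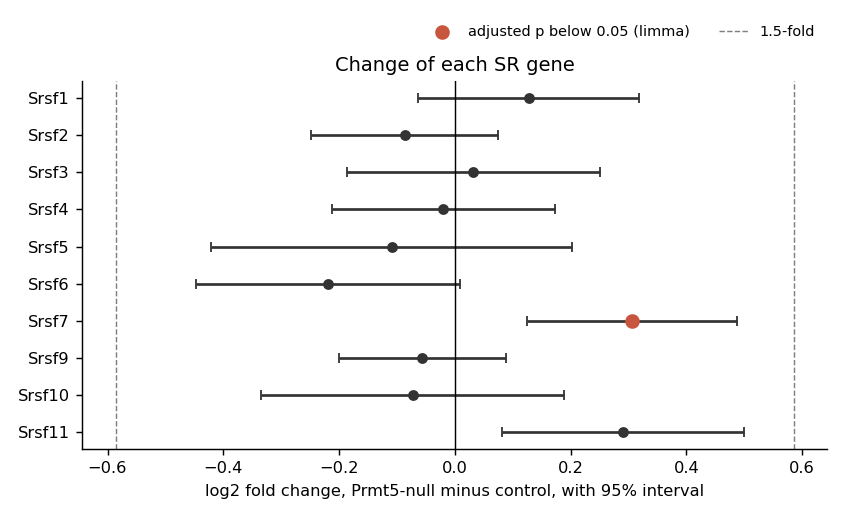
Log2 fold change (Prmt5-null minus control) of each SR gene with its 95% interval from limma, n = 4 libraries per genotype. Srsf7, in red, passed at an adjusted p below 0.05, and no interval reaches the dashed lines at 1.5-fold.

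Libraries of 1 genotype differed from each other in the same direction for many members. Prmt5-null library PRMT5-10618 was the highest of its genotype for 7 of the 10 genes and CTRL-10597 for 8, whereas CTRL-10650 was the lowest for 8. The 10 genes together took 0.289%, 0.294%, 0.329% and 0.256% of the normalized counts in CTRL-10370, CTRL-10596, CTRL-10597 and CTRL-10650, and 0.288%, 0.336%, 0.274% and 0.296% in PRMT5-10617, PRMT5-10618, PRMT5-10770 and PRMT5-10771. The genotypes overlapped throughout in this sum. The libraries highest for the SR genes also had the most genes above 0, with 22164 genes in PRMT5-10618 and 22085 in CTRL-10597 against 20177 to 21041 in the other 6. The part of this in the SR values was not tested. Without both libraries, an alternative chosen after the data were seen, 0 members passed by limma and Srsf7 had a log2 fold change of 0.31 (adjusted p = 0.0698). The genes whose log2 values followed the mean standardised SR value most closely over the 8 libraries were Alg13 (Pearson r = 0.979), Lemd3 (0.966) and Zfp433 (0.952), among 13290 genes compared, a description in which all values share their libraries.

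Levels were also divided by the kb of annotated exon of each gene. That length includes exons of NMD and retained intron transcripts, so the order of genes on this scale depends on the annotation. Before division, the control means of Srsf1 and Srsf2 were 32791 and 19329 normalized counts. Per kb, Srsf2 and Srsf1 were highest in controls, at 6535 ± 457 and 5743 ± 504 normalized counts per kb (SD, n = 4), and their ranges overlapped. Srsf7 (3299 ± 305), Srsf5 (3136 ± 574) and Srsf6 (3070 ± 373) followed and overlapped with each other. Srsf3 (1908 ± 214) overlapped with Srsf9 (1730 ± 40.2), and Srsf11 (1108 ± 109) with Srsf10 (1102 ± 113). Srsf4 was lowest, at 816 ± 69.3, below every control value of Srsf10.

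Expressed as a share of the 10-gene sum in its own library, 4 members had no overlap between genotypes. In level, 1 member, Srsf7, had none, as did 19.8% of all genes tested. The shares are defined only for the 10 genes, so no rate over all genes stands beside the count of 4. The share of Srsf7 was 11.22 to 12.27% in controls and 13.61 to 14.94% in Prmt5-null cells. That of Srsf11 was 3.81 to 3.95% and 4.4 to 4.93%, and that of Srsf1 was 19.58 to 20.81% and 20.96 to 22.75%. The share of Srsf6 was lower, at 9.95 to 11.41% in controls and 8.53 to 9.67% in Prmt5-null cells. These shares add up to 100% within a library, so that a higher share of 1 gene lowers the others, and they were not tested.

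**Figure D3:**
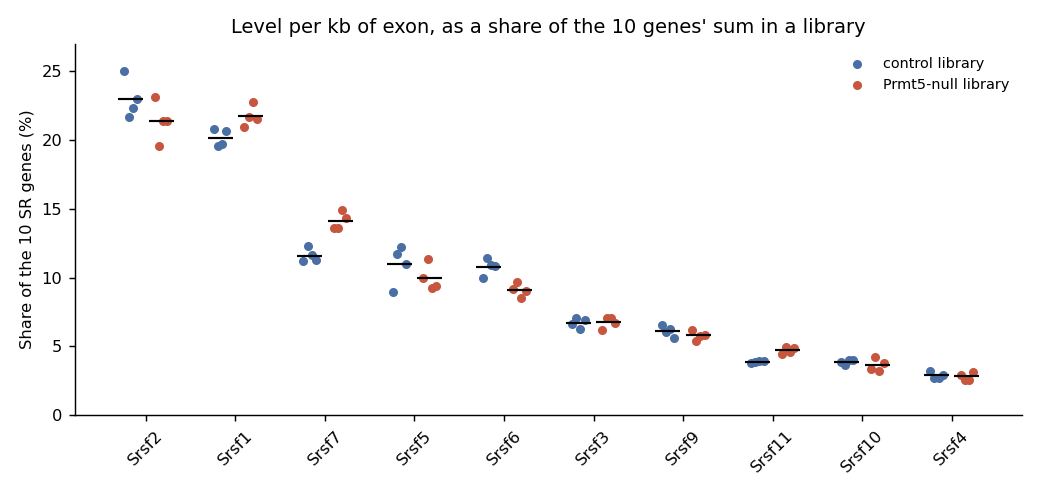
Level per kb of exon of each SR gene as a share (%) of the sum of the 10 genes in the same library, with 1 point per library and the group mean as a bar. Points of Srsf7, Srsf11 and Srsf1 are higher in every Prmt5-null library (red) than in any control (blue), and those of Srsf6 are lower.

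Splicing events were deposited for 3 of the 10 members, Srsf7, Srsf10 and Srsf11, while 11.4% of the 13300 genes with a mean above 50 normalized counts had an event and 13.6% of those at least as high as the lowest member. The member events were 2 skipped exons, a type found in 6.86% of genes, and 1 pair of mutually exclusive exons, found in 2.63%. The authors kept events that differed between genotypes, so the differences are described and not tested. An inclusion level is the estimated fraction of the inclusion form among the 2 forms that an event compares. It comes from reads on junctions and exon body, scaled by the length of each form, and is not a fraction of all transcripts of the gene. The deposited lists hold 4 levels per genotype that no header ties to a library, and are given in their listed order.

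In Srsf11, the 117-base exon shown above was included at 0.673, 0.75, 0.659 and 0.742 in controls and at 1.0, 1.0, 0.87 and 0.935 in Prmt5-null cells. Every Prmt5-null value was above every control. The means were 0.706 and 0.951, a difference of 0.245. The event rested on few reads, 127 in controls and 122 in Prmt5-null cells, with 15 in the lowest value, and skipping was seen in 22 and 3 reads. These reads were 0.34% and 0.26% of all reads on the gene.

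The annotation places the event inside a 3774-base intron of Srsf11. The 117-base exon occurs in 2 of the 19 annotated transcripts, both of the NMD class, and in 0 of the 5 protein coding ones. The exon on its 5′ side in the event, the 109-base exon, is also in 2 NMD transcripts and no coding one, and it has an annotated stop codon of its own. Thus the 2 forms compared both hold an NMD exon, and the junction that joins the coding exons directly, found in 4 of the 5 coding transcripts, is outside the event. The inclusion level therefore does not measure the share of Srsf11 transcripts that hold a poison exon.

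**Figure D4:**
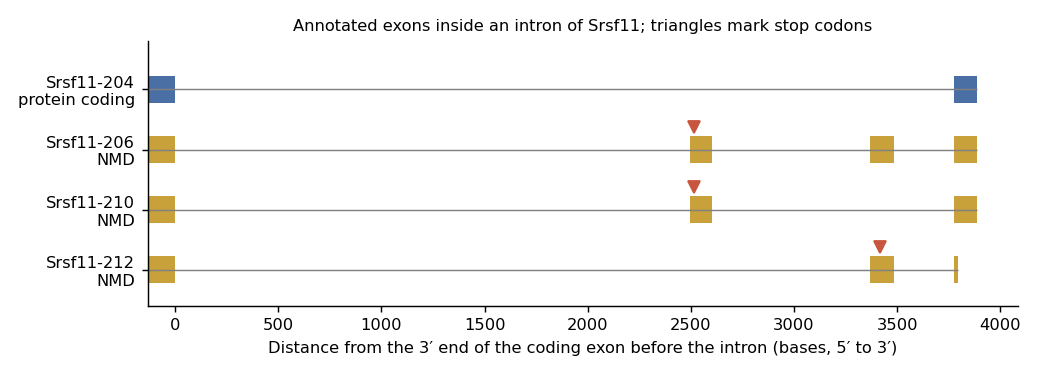
Annotated Srsf11 exons (boxes) in 1 protein coding (blue) and 3 NMD (yellow) transcripts, placed by distance in bases from the end of the coding exon before the intron, with triangles at annotated stop codons. The coding transcript crosses the 3774-base intron directly, and each NMD transcript meets a stop codon in the 109-base or the 117-base exon.

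In Srsf10, the 54-base exon was included at 0.798, 0.91, 0.87 and 0.89 in controls and at 0.777, 0.777, 0.72 and 0.757 in Prmt5-null cells. All 4 Prmt5-null values were below the lowest control, though the gap there was small. The means were 0.867 and 0.758, a difference of -0.109, from 355 and 272 reads. Of the 4 coding transcripts, 2 hold the exon at this length and 2 hold it without its first 3 bases, through the second AG of the acceptor shown above. The flanking exon on the 3′ side ends 2 of the 4 coding transcripts, and the other 2 end at a nearer exon outside the event. The event's reads were 1.15% of all reads on the gene in controls and 0.91% in Prmt5-null cells. No annotated transcript joins the flanking exons directly, and the 54-base exon keeps the reading frame at either length.

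In Srsf7, the event compared the 54-base with the 36-base exon as if they excluded each other. The level of the 54-base form was 0.402, 0.387, 0.403 and 0.374 in controls and 0.474, 0.499, 0.492 and 0.504 in Prmt5-null cells. The groups did not overlap, and this event was the best covered, with 2588 and 3806 reads. The means were 0.392 and 0.492, a difference of 0.101. However, 3 of the 4 coding transcripts hold both exons, 1 holds the 54-base exon alone and none the 36-base exon alone, so reads from transcripts with both enter both forms. Both exons keep the reading frame. Srsf7 was thus the member with a passed change in level and also a deposited event. Both were near their thresholds. The level call was lost in 9 of 21 alternatives, and the event's difference ran from 0.095 to 0.107 when 1 listed value was left out. Its 54-base exon is in 4 coding transcripts and 1 NMD transcript, and its 36-base exon in 3 coding transcripts and 1 NMD transcript.

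**Figure D5:**
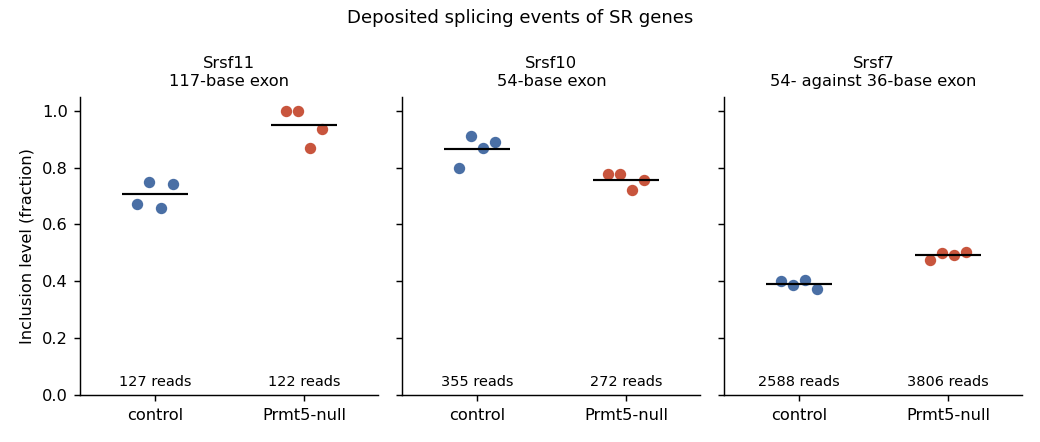
Inclusion levels (fraction, axis from 0) of the 3 deposited SR events, with 1 point per listed value, the mean as a bar and the summed reads of each genotype at the foot. Mean inclusion is higher in Prmt5-null cells for Srsf11 (0.951 against 0.706) and Srsf7 (0.492 against 0.392) and lower for Srsf10 (0.758 against 0.867).

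The other 7 members had no event in the tables used here. In the annotation, the 10 genes have 85 transcripts, of which 29 are protein coding, 15 in 9 genes are of the NMD class and 26 in 8 genes retain an intron. No member had a retained intron event in these tables, while 2.53% of genes had one. The tables hold only events kept by the authors, so a form without an entry may have differed by less or had too few reads.

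Among the 9 kinases and import factors of SR proteins, 0 were higher and 2 lower by the test that 13.8% of all genes passed (median log2 fold change 0.03). Srpk1, which phosphorylates SR proteins in the cytoplasm, fell from 7597 ± 160 to 6283 ± 565 normalized counts (SD, n = 4 each; log2 fold change -0.28, adjusted p = 0.0333). Srpk3, a related kinase, fell from 1116 ± 361 to 531 ± 208 (-1.09, adjusted p = 0.0155). Events were deposited for 5 of the 9 genes (55.6%, against 11.4% of all genes with a mean above 50). The only event of Srpk2 rested on 39 reads, with 1 in its lowest value, and that of Srpk1 differed by 0.063 between the genotypes. Of the 9 events of these genes, 6 had higher and 3 lower mean inclusion in Prmt5-null cells. Clk2, a nuclear SR kinase, had 3 events. Mean inclusion was 0.473 in controls and 0.769 in Prmt5-null cells for an alternative 3′ splice site and 0.357 and 0.643 for a retained intron. For a skipped exon it was 0.61 and 0.761. The level of Clk2 did not pass the test (log2 fold change 0.42, limma adjusted p = 0.0864).

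Of the 36 SR-related proteins, Rbm23 was not matched to a measured gene, and 34 were tested. Estimates were higher in Prmt5-null cells for 20 and lower for 14 (median log2 fold change 0.04). The test was passed by 5 as higher and 2 as lower, while 13.8% of all genes passed it. Zranb2, a zinc finger protein that binds 5′ splice sites, fell from 5658 ± 401 to 2847 ± 221 normalized counts (-0.99, adjusted p = 3.94e-05). Nktr, a cyclophilin with an arginine-serine tail, fell by 0.61 on the log2 scale (adjusted p = 0.0158). Ddx23, a helicase of the U5 particle, rose by 0.52 (adjusted p = 0.000684), Pnn, of the exon junction, by 0.50 (0.0454) and Prpf38b by 0.46 (0.0223). Events were deposited for 11 of the 33 SR-related genes with a mean above 50 (33.3%, against 11.4% of all such genes), 18 events in all, with Zranb2, Nktr and Prpf38b among these genes. Srsf12, a little expressed relative of Srsf10, was at 27.6 ± 10.3 and 16.5 ± 1.53 in Prmt5-null and control cells (adjusted p = 0.249).

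Of 15 genes of NMD and the exon junction complex, 8 had a higher and 7 a lower estimate in Prmt5-null cells (median log2 fold change 0.03). The test was passed by 1 as higher and 1 as lower, while 13.8% of all genes passed it. A deposited event was found for 0 of the 15. Upf3a rose from 1172 ± 37.9 to 1574 ± 74.6 normalized counts (log2 fold change 0.42, adjusted p = 0.00361). Rbm8a, a core protein of the exon junction complex, fell from 3182 ± 73.5 to 2593 ± 289 (-0.30, adjusted p = 0.0359). The 3 lists together had 11 genes that passed, and 5 to 14 when any 1 library was left out, with 7 without PRMT5-10617, 6 without PRMT5-10771, 5 without CTRL-10650, 5 without CTRL-10370 and 7 without CTRL-10596.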

How the data were processed

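Total RNA depleted of rRNA was sequenced as paired reads from 8 libraries. The authors trimmed reads with Trimmomatic 0.32, aligned them to mm10 with STAR 2.3.0e, counted unique reads in exons with featureCounts 1.4.4 and divided counts by DESeq2 1.14.1 size factors, as listed in the submitters' processing notes. The deposited signal values, called normalized counts here, were 100% whole reads (within 0.01) after division by the worth of 1 read, so counts were recovered for alternatives. The authors ran rMATS on 5 event types, and the deposited lists of inclusion levels (fractions) and read counts were used. Which list is control was taken from the study's legend, and Prmt5's own exon was at 0.989 to 1.0 in those lists and 0.027 to 0.304 in the others. Deposited columns of the authors' own comparisons (p-values, false discovery rates and inclusion differences) were not used.

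Testing used limma 3.58.1 (R 4.3.3; lmFit, eBayes with trend, two-sided) on log2(normalized count + 1), a scale that understates changes of low genes, with Benjamini-Hochberg adjustment over the 16250 genes whose mean normalized count reached 10. A gene passed at an adjusted p below 0.05. Samples were grouped by the genotype in their titles. The label numbers pair no samples, and no label ties a library to 1 of the 2 experiments, so the experiment was tried as a block in 18 placements. Alternatives included pseudocounts of 0.5 and 5, other filters and scalings, edgeR 4.0.16 and DESeq2 1.42.0 on recovered counts, and leaving out each library. The script was tested on simulated data, where fold changes were estimated without marked bias but many 1.5-fold changes were missed, well expressed genes included. A first limit on how many must be recovered was not met and was replaced, after that output was seen, by limits on bias, false calls and the spread of p-values. Exonic length is that of all exons of a gene in GENCODE M21 (GRCm38).

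Named were all members and Prmt5, Srsf12, up to 5 passing genes per related list with the largest change, every deposited event of a member, and the 3 genes most like the members. Clk2 and its values were chosen after they were seen. Members and lists were chosen with earlier results of these data known.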

Additional observations from a re-analysis of the deposited data

Results flagged for a closer look

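Srsf5 in control library CTRL-10650 stood at 9085 normalized counts, far below the other controls at 13372, 13732 and 13835. The gap was 0.903 of the range of the 4 controls. It was the only 1 of 28 groups of 4 values checked in this way that stood out, and chance alone would mark about 1 in 20. The same library was the lowest control for 8 of the 10 SR genes.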

How the results depend on the processing

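The count of SR genes that passed, 1 with limma, was 0 without the filter on low values, without the trend, at an adjusted p below 0.01 and without both libraries with the most genes above 0. It was 2 with DESeq2, 0 to 2 when 1 library was left out and 0 to 2 over 18 placements of the experiment. The 11 genes of the related lists became 4 without the trend, 3 at an adjusted p below 0.01, 5 to 14 without 1 library and 7 at the lowest placement of the experiment. Srsf3, at 0.03, turned to -0.032 without PRMT5-10618, -0.023 without CTRL-10650 and -0.001 without CTRL-10596, within -0.032 to 0.093 over all libraries left out in turn. Srsf4, at -0.02, turned to 0.037 without PRMT5-10770, 0.036 without CTRL-10597 (range -0.068 to 0.037 over libraries left out) and 0.038 without both libraries with the most genes above 0. The other 8 members kept their direction in all 21 alternatives. Of the 3 events with a difference of at least 0.1, 0 reached 0.25, and 1 to 3 remained past 0.1 when 1 listed value was left out. With at least 20 reads in each library 2 were left. The control share of Srsf1 was 20.19% per kb and 25.43% when levels were not divided by length. Why the values moved was not tested.

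Prmt5 kept a log2 fold change of -3.14 to -2.81 in every alternative. No paired analysis was possible because the label numbers are not shared between the genotypes. The Srsf11 event rested on 15 reads in its lowest value, which limits its precision, and the reads behind the Srsf7 event cannot be assigned to 1 form.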
